A study of Mus musculus with 54 samples.

Results

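The 10 genes described here (Nppa, Nppb, Myh6, Myh7, Myh7b, Acta1, Actc1, Ankrd1, Xirp2 and Csrp3) are the cardiac stress and fetal program genes of the mouse heart. They were taken by name and matched by the symbol of their Ensembl identifier, and all 10 were found among the 54232 genes counted in each of the 54 libraries of the series. The series measured mRNA by sequencing in mice given Cmpd60, a benzamide inhibitor of the histone deacetylases HDAC1 and HDAC2, or its vehicle. The comparison made here is between 5 hearts of Cmpd60-treated mice and 6 hearts of vehicle-treated mice. All were male BL6 mice of about 20 months, housed singly on chow and injected intraperitoneally every day for 14 days. The dose of Cmpd60 was 22.5 mg/kg, and the controls received the solvent alone, a mixture of DMSO, PEG400 and saline, so all 11 animals carried the solvent and the injections. No young or untreated heart was among them. The labels name the tissue as heart without naming the chambers taken. Libraries are named below by the number in their label, 62 to 67 for vehicle and 68 to 72 for Cmpd60. The labels do not say that this number identifies an animal. A mouse named by number below is the source of the heart library with that number.

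The adult ventricle of the mouse contracts mainly with the fast alpha myosin heavy chain encoded by Myh6, whereas the fetal ventricle uses more of the slow beta chain encoded by Myh7. Under pressure overload, stretch or failure, the adult heart turns part of the fetal pattern back on: the natriuretic peptide genes Nppa and Nppb, Myh7 and the skeletal alpha-actin gene Acta1 rise, and Myh6 often falls. Class II histone deacetylases are known to hold this program back through MEF2, while class I deacetylases, to which HDAC1 and HDAC2 belong, have been linked to its activation.

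The 3 sarcomeric myosin genes among the members each carry a miRNA within their bounds, and these sequences are shown because they tie the members together by something other than expression. The lines give the mature RefSeq sequences, 5′ to 3′, with the seed (bases 2 to 8) in capitals.
miR-208a-3p, in Myh6: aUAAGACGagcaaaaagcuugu
miR-208b-3p, in Myh7: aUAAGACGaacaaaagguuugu
miR-499-5p, in Myh7b: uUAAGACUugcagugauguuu
On GRCm38.p6 they lie on the minus strand at chr14:54949072-54949093 and chr14:54975710-54975731 and on the plus strand at chr2:155622893-155622913. The seeds of miR-208a-3p and miR-208b-3p are the same 7 bases, and that of miR-499-5p shares the first 6 of them. The libraries were made from poly(A)-selected RNA and did not measure the mature miRNAs.

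The heart libraries held 23584609 to 43792168 counts assigned to genes (median 27421091), and the member with the fewest reads, Myh7b, had at least 684 in each. Depth therefore did not limit any member. Values below are counts relative to the library total, in the usual unit CPM, after scaling by the trimmed mean of M values (TMM). The summed level of 7 cardiomyocyte markers was 27399 to 33442 CPM and that of 6 skeletal muscle markers was 2.21 to 4.52 CPM. Over all genes, vehicle 62 and vehicle 66 stood somewhat apart, with mean correlations of log2 CPM with the other hearts of 0.965 and 0.966. Cmpd60 68 was next at 0.971, close to the 0.973 to 0.980 of the other 8. Adipocyte markers were summed at 244 CPM in vehicle 62 and 220 CPM in Cmpd60 68, and at 24.5 to 120 CPM in the rest. Without these 3 libraries together, 0 members passed edgeR's test. The log2 fold changes of Actc1, Xirp2 and Csrp3 were then 0.11, 0.14 and 0.27 (edgeR adjusted p = 0.750, 0.602 and 0.249), and those of Nppa, Nppb and Ankrd1 are given beside their values below.

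No member passed the test between Cmpd60 and vehicle hearts. With edgeR's quasi-likelihood test and Benjamini-Hochberg adjustment over the 19452 genes tested, 229 genes (1.18%) had an adjusted p under 0.05, 147 of them higher (0.756%) and 82 lower (0.422%) with Cmpd60, and 0 of the 10 members were among them. DESeq2 and limma-voom also called 0 members. The count over all genes rested on single libraries: it was 36 without Cmpd60 72, 73 without Cmpd60 69, 80 without vehicle 63 and without vehicle 64, 81 without vehicle 67 and 125 without vehicle 65. At an unadjusted p under 0.05, 3 of the 10 members stood out (Ankrd1 higher, Acta1 and Myh7b lower), beside 13.5% of all genes. In 0 of the 10 did the 2 groups fail to overlap, beside 2.69% of all genes. The median log2 fold change of the members was 0.06, with 6 fitted higher and 4 lower, and that of all genes tested was -0.0014.

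**Figure D1:**
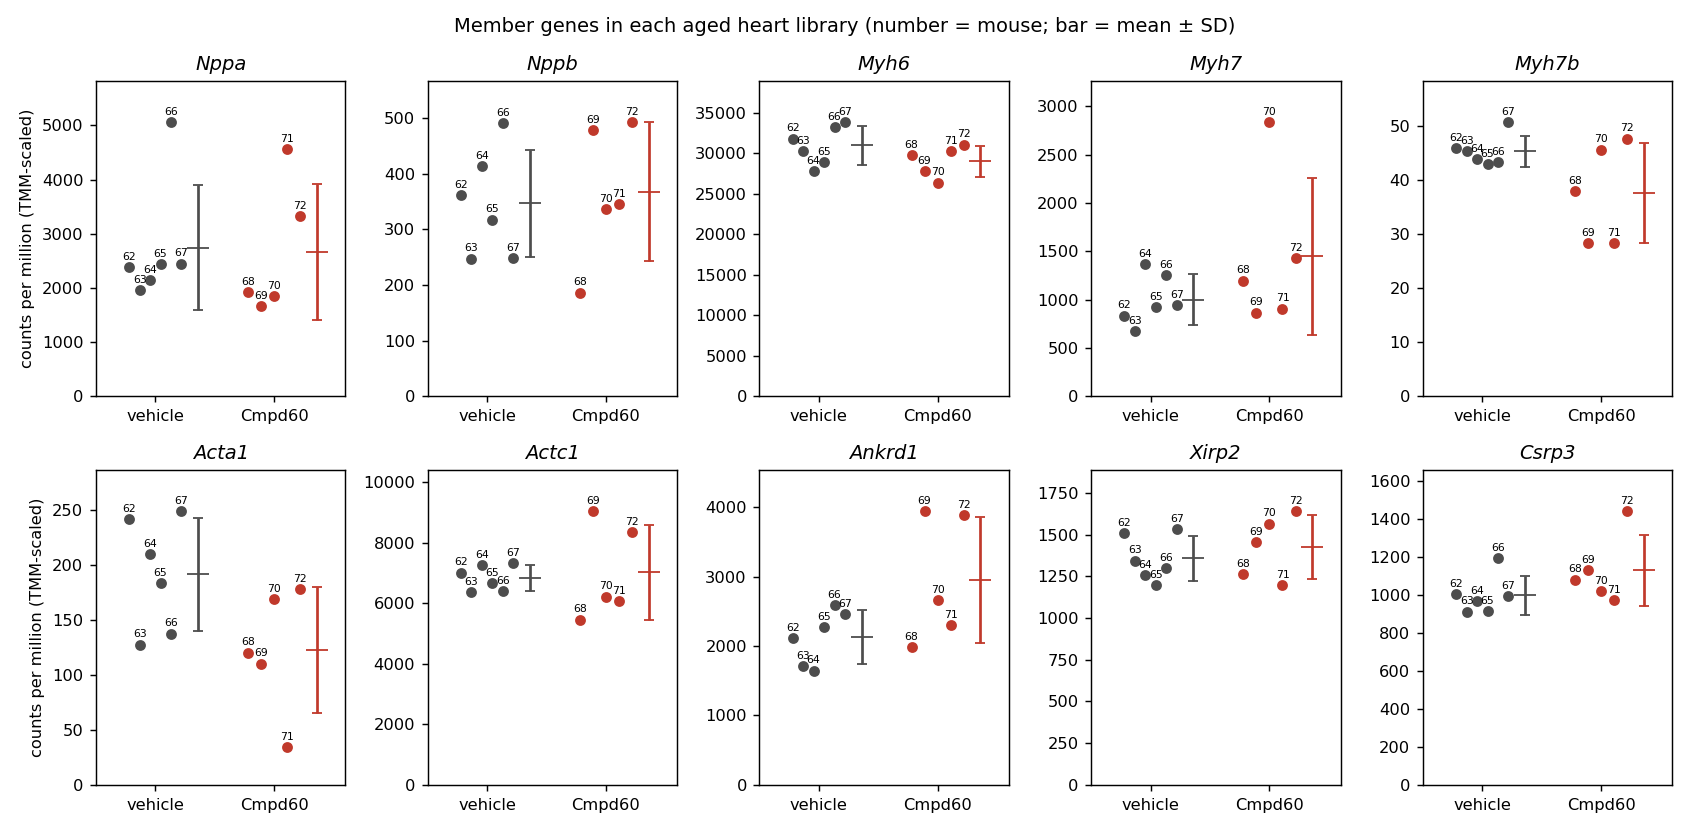
Level in CPM (TMM-scaled, vertical axes from 0) of each member in the 6 vehicle and 5 Cmpd60 hearts. Each point is 1 library with its label number, and the bar beside each group is the mean ± SD. The groups overlap for every member, Nppa is highest in vehicle 66 and Cmpd60 71, Myh7 is highest in Cmpd60 70 and Acta1 is lowest in Cmpd60 71.

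Nppa encodes atrial natriuretic peptide, a hormone that atrial myocytes make throughout life and ventricular myocytes make before birth and under load. Its level in the Cmpd60 hearts was 1915 CPM in mouse 68, 1662 in 69, 1845 in 70, 4565 in 71 and 3319 in 72. In the vehicle hearts it ran from 1954 to 5059 CPM with a median of 2412. Cmpd60 71 and vehicle 66 were the high libraries, 1 in each group, and 3 of the 5 Cmpd60 values lay below every vehicle value. The mean of the treated hearts was 2661 ± 1253 CPM (SD, n = 5), and that of the controls 2738 ± 1154 CPM (SD, n = 6). The log2 fold change was -0.04 ± 0.27 (SE), with a 95% interval of -0.61 to 0.53 and an edgeR adjusted p of 0.972. Without vehicle 66 it was 0.23, and without vehicle 62, vehicle 66 and Cmpd60 68 together it was 0.34, so its sign turned on few libraries. In RNA from whole tissue, fewer cells of a type and less RNA per cell cannot be told apart.

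Nppb, the gene of B-type natriuretic peptide and the clinical marker of ventricular wall stress, lies 13516 bases from Nppa on GRCm38. The Cmpd60 hearts had 186, 479, 337, 345 and 492.9 CPM in mice 68 to 72 in order. The vehicle hearts had 247 to 492 CPM, with a median of 340. The lowest and the highest of the 11 values were both Cmpd60 libraries (68 and 72). The means were 368 ± 125 CPM (SD, n = 5) and 347 ± 95.9 CPM (SD, n = 6), and the log2 fold change was 0.09 ± 0.21 (SE; 95% interval -0.37 to 0.54; edgeR adjusted p = 0.909). Vehicle 66 held the highest vehicle value and Cmpd60 68 the lowest Cmpd60 value. Without both of these and vehicle 62, the log2 fold change was 0.43, with an edgeR adjusted p of 0.228. It was -0.03 without Cmpd60 69 and -0.04 without Cmpd60 72.

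Myh6 had the highest mean level per kilobase of exon among the members in both groups, and it was the highest in 6 of the 11 hearts, Actc1 in 3 and Nppa in 2. Its 5 Cmpd60 values were 29735, 27770, 26385, 30225 and 31060 CPM, and the vehicle values ran from 27840 to 33843 CPM with a median of 31034. The groups overlapped along most of this range, with 2 Cmpd60 values below every vehicle value. The difference on the log2 scale was -0.09 ± 0.07 (SE), with a 95% interval of -0.23 to 0.05 and an edgeR adjusted p of 0.588. As a fold, that interval runs from 0.850 to 1.03 times the vehicle level.

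Myh7 was the most variable of the myosins. It stood at 1196 CPM in Cmpd60 68, 865 in 69, 2837 in 70, 907 in 71 and 1432 in 72, against 674 to 1366 CPM (median 933) in the vehicle hearts. Mouse 70 had the highest value of all 11, and mouse 72 was just above the vehicle range. The means were 1447 ± 810 CPM (SD, n = 5) and 999 ± 261 CPM (SD, n = 6). The log2 fold change of 0.53 ± 0.26 (SE; 95% interval -0.01 to 1.08) had an unadjusted p of 0.0534 and an adjusted p of 0.379 by edgeR. It rested on 1 heart: without Cmpd60 70 it was 0.14, with an edgeR adjusted p of 0.814.

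Myh7b encodes a slow myosin that the heart transcribes at a low level and from which little protein is made. Its Cmpd60 values were 38.0, 28.4, 45.7, 28.3 and 47.7 CPM, and its vehicle values lay close together, from 43.1 to 50.8 CPM. Mice 68, 69 and 71 were below every vehicle heart, and mice 70 and 72 were within the vehicle range. With Cmpd60 the log2 fold change was -0.27 ± 0.12 (SE; 95% interval -0.53 to -0.01; edgeR adjusted p = 0.355). Without Cmpd60 69 or without Cmpd60 71 it was -0.18.

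Myh6 and Myh7 stand 2666 bases apart on GRCm38, and their coding sequences were identical at 91.7% of 5805 aligned bases. Of the windows of 50 bases along the Myh6 transcript, 22.8% occurred unchanged in Myh7. Reads that fall wholly within such windows have no unique origin, which leaves the levels of both genes less certain. Ankrd1, Xirp2 and Csrp3 were not compared with related genes in this way. Between Acta1 and Actc1, whose coding sequences were identical at 86.2% of 1134 bases, no window of 50 bases was shared.

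Acta1, the skeletal alpha-actin gene, is the actin isoform of the fetal heart program. It measured 121, 111, 169, 34.7 and 178 CPM in Cmpd60 mice 68 to 72, and 128 to 250 CPM (median 197) in vehicle mice. Cmpd60 71 was far below all others, mice 68 and 69 were just below the vehicle range, and mice 70 and 72 were inside it. The means were 123 ± 57.4 CPM (SD, n = 5) and 192 ± 51.6 CPM (SD, n = 6). The log2 fold change was -0.64 ± 0.29 (SE), with a 95% interval of -1.26 to -0.02. Its p was 0.0430 unadjusted and 0.349 after adjustment by edgeR. Without Cmpd60 71 the log2 fold change was -0.41, with an edgeR adjusted p of 0.347.

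Actc1, the cardiac alpha-actin gene that the adult heart relies on, measured 5460, 9055, 6220, 6067 and 8343 CPM in the Cmpd60 hearts and 6367 to 7320 CPM (median 6835) in the vehicle hearts. Mice 68, 70 and 71 lay below the vehicle range and mice 69 and 72 above it. Its log2 fold change was 0.04 ± 0.11 (SE; 95% interval -0.19 to 0.27; edgeR adjusted p = 0.917).

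Ankrd1 encodes a stretch-responsive ankyrin repeat protein that binds titin and also enters the nucleus. It had the smallest p of the members. The Cmpd60 hearts had 1984 CPM in mouse 68, 3948 in 69, 2666 in 70, 2303 in 71 and 3882 in 72. The vehicle hearts had 1646 to 2589 CPM, with a median of 2193. Mice 69, 70 and 72 were above every vehicle heart, 70 by a small margin, and mice 68 and 71 were inside the vehicle range. The means were 2957 ± 908 CPM (SD, n = 5) and 2133 ± 387 CPM (SD, n = 6). The log2 fold change was 0.47 ± 0.17 (SE; 95% interval 0.12 to 0.82), with an edgeR p of 0.0123 unadjusted and 0.205 adjusted. It was 0.34 without Cmpd60 69, 0.35 without Cmpd60 72 and 0.66 without vehicle 62, vehicle 66 and Cmpd60 68, and the adjusted p ranged from 0.0775 to 0.480 when single libraries were left out.

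Csrp3, which encodes the muscle LIM protein of the Z-disc, had values of 1080, 1130, 1020, 973 and 1442 CPM with Cmpd60 and of 912 to 1194 CPM (median 979) with vehicle. Only mouse 72 was above the vehicle range. Its log2 fold change was 0.18 ± 0.09 (SE; 95% interval -0.02 to 0.38; edgeR adjusted p = 0.443), and 0.08 without Cmpd60 72. Xirp2, an actin-binding gene of the intercalated disc and Z-disc, had values of 1266, 1456, 1566, 1195 and 1643 CPM with Cmpd60 and of 1198 to 1535 CPM (median 1323) with vehicle. Its groups overlapped nearly throughout, with a log2 fold change of 0.07 ± 0.09 (SE; 95% interval -0.12 to 0.26; edgeR adjusted p = 0.803).

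**Figure D2:**
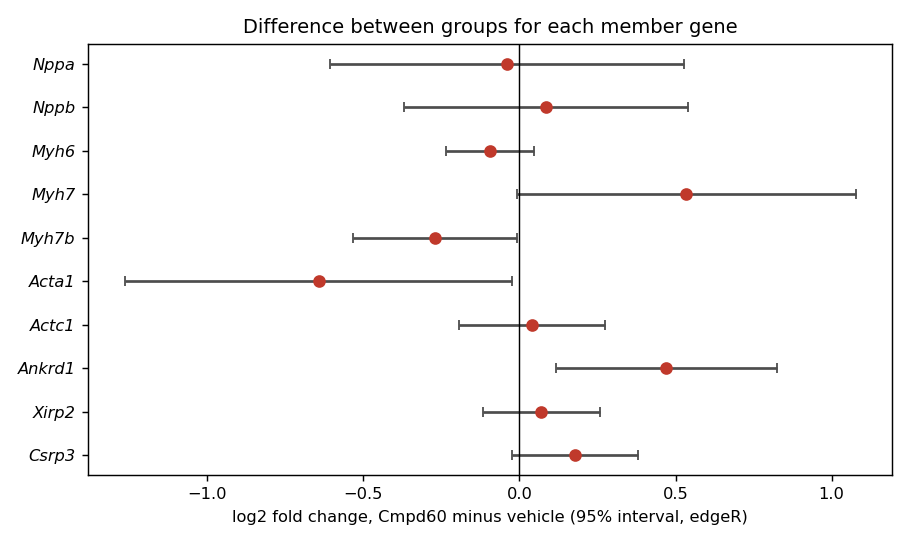
Log2 fold change of each member, Cmpd60 minus vehicle, on the horizontal axis, with its 95% interval from edgeR for 5 Cmpd60 and 6 vehicle hearts; the vertical line marks no difference. Intervals of Ankrd1 (0.12 to 0.82), Acta1 (-1.26 to -0.02) and Myh7b (-0.53 to -0.01) lie to one side of the line before adjustment, and that of Myh7 (-0.01 to 1.08) just crosses it.

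The promoters of Acta1 and Ankrd1 are shown because these genes had the 2 smallest unadjusted p values among the members, in opposite directions. The lines give the 250 bases before the annotated start in RefSeq, on the gene's strand, with matches to the motifs named below in capitals.
Acta1: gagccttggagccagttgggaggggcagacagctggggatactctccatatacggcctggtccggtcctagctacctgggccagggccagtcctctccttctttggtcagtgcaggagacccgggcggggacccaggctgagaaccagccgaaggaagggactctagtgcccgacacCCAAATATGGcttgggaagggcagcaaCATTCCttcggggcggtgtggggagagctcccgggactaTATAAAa
Ankrd1: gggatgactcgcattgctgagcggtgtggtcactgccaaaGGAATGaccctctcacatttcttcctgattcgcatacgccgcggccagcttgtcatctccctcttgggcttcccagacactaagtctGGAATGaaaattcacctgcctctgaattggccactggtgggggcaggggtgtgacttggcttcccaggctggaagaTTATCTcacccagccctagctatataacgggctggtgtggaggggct
On GRCm38.p6 these are chr8:123894776-123895025 and chr19:36119845-36120094, both on the minus strand. The capitals mark the M-CAT element CATTCC, which TEAD factors bind, the CArG box of serum response factor, a GATA element (GATA with A or T just before it and A or G just after) and, on the gene's strand alone, TATAAA. The other motifs, MEF2 sites included, were searched on both strands, over windows of 300 bases that also hold the first 50 after the start.

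Over those windows, the M-CAT letters were found in 5 of the 10 members (Nppb, Myh6, Myh7, Acta1 and Ankrd1) and in 14.7% of 32851 RefSeq promoters. A CArG box was found in Acta1 and Actc1, the 2 actin genes, and in 1.63% of promoters. A GATA element was found in 7 members and 29.8% of promoters, TATAAA in 5 members and 8.32% of promoters, and a MEF2 site in Xirp2 alone among the members and 3.19% of promoters. Ankrd1 held 2 M-CAT elements. These are matches of letters, and no binding or accessibility was measured in the hearts. Myh7 and Csrp3 have 2 annotated promoters each and counted if either matched, whereas the percentages count each promoter singly. The M-CAT match of Myh7 and the GATA matches of Csrp3 each lay in 1 of the 2.

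Paired genes were next compared within each library, which removes depth and scaling. The ratio of Myh6 to Myh7 counts, not corrected for length, is the usual measure of the myosin isoform switch. It was 24.9 in Cmpd60 68, 32.1 in 69, 9.30 in 70, 33.3 in 71 and 21.7 in 72, and 20.4 to 44.9 (median 33.6) in the vehicle hearts. Mouse 70 alone was below the vehicle range. The mean log2 ratio was 4.47 ± 0.75 (SD, n = 5) with Cmpd60 and 4.99 ± 0.41 (SD, n = 6) with vehicle. The difference of -0.52 had an exact two-sided permutation p of 0.165, or 0.247 after adjustment over the 3 ratios tested. The smallest p this design allows is 0.0022. Without Cmpd60 70 the difference was -0.21, with an exact permutation p of 0.400.

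The ratio of Acta1 to Actc1 counts, the corresponding actin switch, was 0.0221, 0.0122, 0.0272, 0.00572 and 0.0214 in Cmpd60 mice 68 to 72. In vehicle mice it was 0.0201 to 0.0345, with a median of 0.0283. Mice 69 and 71 were below the vehicle range. The log2 difference was -0.81, with an exact two-sided permutation p of 0.0519 and an adjusted p of 0.156. It was -0.45 (exact permutation p = 0.124) without Cmpd60 71. Leaving out Cmpd60 68, Cmpd60 70 or vehicle 63 gave unadjusted exact permutation p values of 0.0429, 0.0238 and 0.0317, and leaving out vehicle 62, vehicle 66 and Cmpd60 68 together gave 0.143.

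The ratio of Nppa to Nppb ranged from 3.47 (Cmpd60 69) to 13.2 (Cmpd60 71) in the treated hearts and from 5.18 to 10.3 in the controls. The Cmpd60 hearts thus held both the lowest and the highest ratio. The log2 difference was -0.13 (exact two-sided permutation p = 0.712), and -0.22 without vehicle 62, vehicle 66 and Cmpd60 68 (exact permutation p = 0.629).

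**Figure D3:**
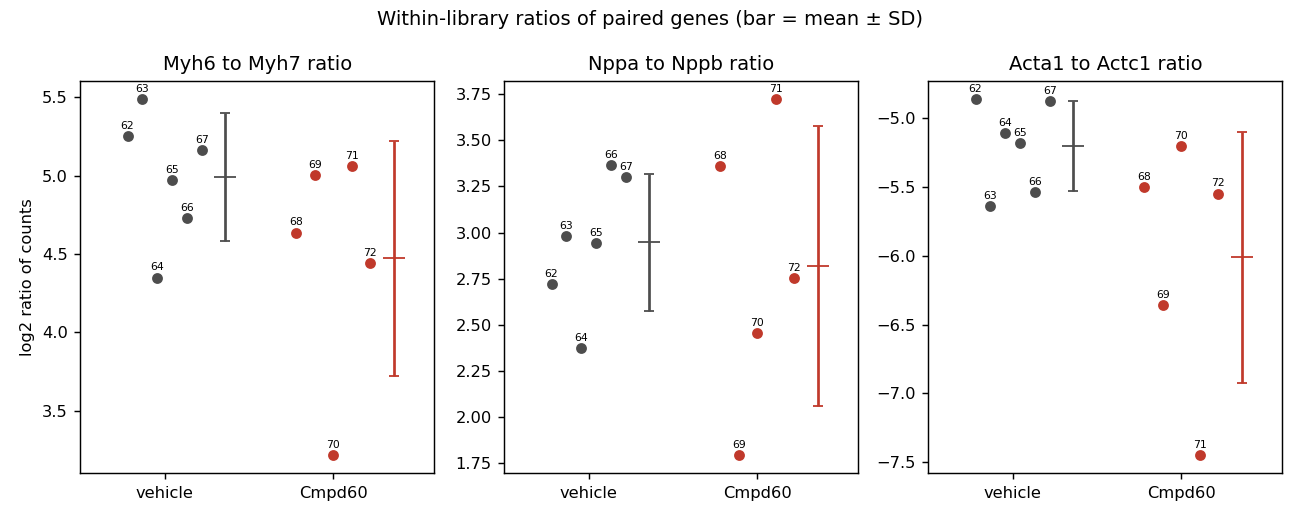
Log2 ratio of the counts of 2 genes within each library (vertical axes), for 6 vehicle and 5 Cmpd60 hearts. Points carry label numbers, and bars are mean ± SD. Cmpd60 70 has the lowest Myh6 to Myh7 ratio (9.30 before the log), Cmpd60 71 the lowest Acta1 to Actc1 ratio (0.00572), and the groups overlap in all 3 panels.

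Several members spread widely between hearts of the same group. Among genes with a mean of at least 10 CPM, the median coefficient of variation was 8.73% over the vehicle hearts and 9.31% over the Cmpd60 hearts. That of Nppa was 42.1% and 47.1%, above 99.2% and 99.3% of these genes. For Myh7 it was 26.1% and 56.0%, and for Acta1 26.9% and 46.8%. In all, 4 of the 10 members (Nppb was the fourth) were among the 5% of genes with the widest spread in the vehicle hearts, and 6 (with Ankrd1 and Myh7b) in the Cmpd60 hearts. Myh6, at 7.76% and 6.59%, was below the median in both. The coefficient was larger in the Cmpd60 hearts for 9 of the 10 members, Myh6 being the exception. In Myh7b it was 6.31% over the vehicle hearts and 24.5% over the Cmpd60 hearts, and in Actc1 6.19% and 22.4%. This difference in spread between the groups was not tested. The median over all genes with a mean of at least 10 CPM was also larger with Cmpd60 (9.31% against 8.73%). How many of those genes had the larger coefficient with Cmpd60 was not counted.

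The 2 highest Nppa values coincided with genes of atrial myocytes. The summed level of 7 atrial markers was 2368 CPM in vehicle 66 and 1893 CPM in Cmpd60 71, the 2 libraries with the most Nppa, and 591 to 1627 CPM in the other 9 hearts. Cmpd60 72, next in Nppa at 3319 CPM, had an atrial sum of 976 CPM, below every vehicle heart (1044 to 2368 CPM). Cmpd60 69, with the least Nppa, also had the lowest atrial sum, 591 CPM. None of the 7 markers was at 0 in any heart. Sln, the sarcolipin gene, was 62.6 to 194 CPM with Cmpd60 and 92.2 to 210 CPM with vehicle. Myl7, the atrial regulatory light chain, was 122 to 315 CPM and 250 to 463 CPM. Cmpd60 71, at 315 CPM of Myl7, was below vehicle 64 (405 CPM) and vehicle 65 (330 CPM). Bmp10 ran from 3.89 CPM in Cmpd60 69 to 407 CPM in Cmpd60 71, and from 92.9 CPM in vehicle 63 to 474 CPM in vehicle 66. Cmpd60 70 had 291 CPM of Bmp10 beside only 1845 CPM of Nppa. All 7 atrial markers were fitted lower with Cmpd60 (median log2 fold change -0.42), but 0 of 7 passed edgeR's test and 2 of 7 had an unadjusted p under 0.05. Those 2, Myl7 and Myl4, passed without Cmpd60 71, with edgeR adjusted p of 0.0289 and 0.0332. Their part in the Nppa comparison was not tested.

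Over the 11 hearts, after removal of the group means, log2 Nppa and log2 Sln had a Pearson r of 0.81 (permutation p = 0.0075, adjusted p = 0.030 over the 4 pairs tested) and a Spearman rho of 0.60 (permutation p = 0.079, adjusted p = 0.317). The relation rested on 2 hearts: without Cmpd60 71 and vehicle 66, r was 0.29 (permutation p = 0.467). For Nppa and Nppb, r was 0.39 (permutation p = 0.289) and rho 0.35 (permutation p = 0.321), and r was 0.30 without the same pair of hearts. For Myh6 and Myh7, r was -0.32 (permutation p = 0.349) and rho -0.10 (permutation p = 0.777), and r turned to 0.13 without Cmpd60 70 and vehicle 67. For Nppa and Myh7, r was -0.01 (permutation p = 0.984) and rho 0.24 (permutation p = 0.526), and r was 0.12 without Cmpd60 71 and vehicle 66. The library with the most Nppa in the Cmpd60 group (71) was not the library with the most Myh7 (70).

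**Figure D4:**
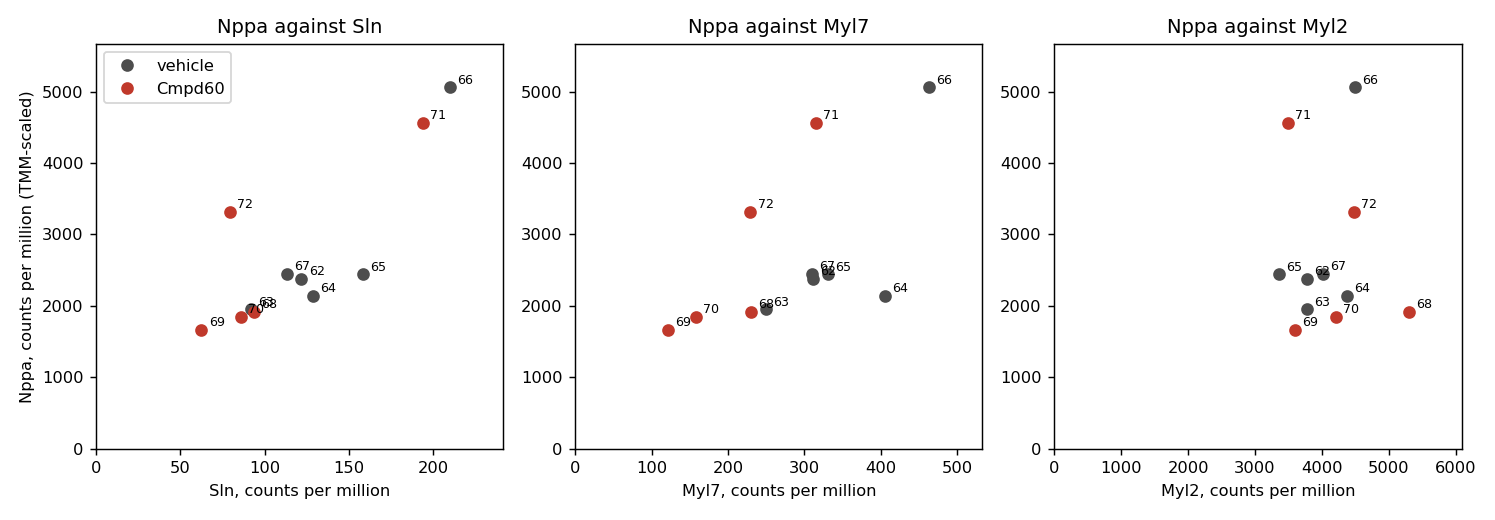
Nppa (vertical axes) against Sln, Myl7 and Myl2 (horizontal axes), all in CPM. Each point is 1 heart with its label number, vehicle in grey and Cmpd60 in red. Vehicle 66 and Cmpd60 71, highest in Nppa (5059 and 4565), are also highest in the atrial gene Sln (210 and 194). In the atrial gene Myl7, vehicle 66 is highest (463), but Cmpd60 71 (315) is below vehicle 64 (405) and vehicle 65 (330). For the ventricular light chain Myl2, vehicle 66 and Cmpd60 71 are within the range of the others.

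By the rule of highest Pearson r of log2 CPM over the 11 hearts, among 13371 genes with a mean of at least 1 CPM, the genes most like Nppa were Gpx3 (r = 0.94), Ndnf (r = 0.92) and Dkk3 (r = 0.91). Dkk3 was also on the list of atrial markers. For Ankrd1 they were Sdc3 (r = 0.96), Cmklr1 (r = 0.95) and Mical2 (r = 0.95), and for Myh7 they were Morn2 (r = 0.87), Cyb5rl (r = 0.85) and C730034F03Rik (r = 0.78). These values are descriptions over libraries that share 1 treatment contrast.

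The genes around the members were then examined as 10 lists, 141 genes in all, of which 7 passed edgeR's test. Over all genes tested, 1.18% passed and 13.5% had an unadjusted p under 0.05, the background for the counts of each list. Of 11 genes for the processing and signalling of natriuretic peptides, 0 passed. Corin, the protease that cleaves pro-ANP, averaged 420 ± 29.7 CPM in the treated hearts (SD, n = 5) against 359 ± 18.7 CPM in the controls (SD, n = 6), a log2 fold change of 0.23 with an edgeR adjusted p of 0.0811. Nppc, the gene of C-type natriuretic peptide, had 1 to 4 counts in each Cmpd60 heart and 0 or 1 in each vehicle heart (edgeR adjusted p = 0.180), too few for a fold. In this list, 3 genes had an unadjusted p under 0.05.

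Of the 18 transcription factors of the fetal program, 0 passed edgeR's test and 4 had an unadjusted p under 0.05. The smallest p values belonged to Tead1, a factor of the M-CAT element (log2 fold change 0.23, edgeR adjusted p = 0.128), and Mef2d (-0.19, adjusted p = 0.130). In the calcineurin, CaMKII and class IIa HDAC list, 1 of 15 rose and none fell. That gene was Hopx, a homeodomain protein without DNA binding that recruits histone deacetylases to serum response factor targets, with 141.6 ± 28.4 CPM (SD, n = 5) against 95.1 ± 8.64 CPM (SD, n = 6) and a log2 fold change of 0.57 (edgeR adjusted p = 0.0230). Rcan1, the calcineurin target commonly used to read its activity, had a log2 fold change of 0.62 with an edgeR adjusted p of 0.102. In the thyroid hormone axis, which controls the Myh6 to Myh7 switch, 0 of 13 passed and 1 had an unadjusted p under 0.05. That gene was Thrb, a thyroid hormone receptor, at a log2 fold change of -0.36 (edgeR adjusted p = 0.0744), followed by Rxra at -0.10 (adjusted p = 0.533).

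Among 15 sarcomere partners of the members, 1 fell and none rose. Mybpc3, which encodes cardiac myosin binding protein C of the thick filament, was 2074 to 2713 CPM in the Cmpd60 hearts and 3011 to 3542 CPM in the vehicle hearts, with no overlap. Its log2 fold change was -0.42 ± 0.07 (SE; edgeR adjusted p = 0.0157). In the list of 20 Z-disc and costamere genes, the neighbours of Ankrd1, Csrp3 and Xirp2, 0 passed edgeR's test and 5 had an unadjusted p under 0.05, led by Cryab (log2 fold change -0.25, adjusted p = 0.0732) and Hspb7 (0.22, adjusted p = 0.209), both small heat shock proteins. Without vehicle 62, vehicle 66 and Cmpd60 68 together, 1 of the 20 passed: Flnc, the gene of filamin C, with a log2 fold change of 0.41 (edgeR adjusted p = 0.0463), named after its value was seen.

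The list of immediate early and injury genes had the highest median log2 fold change, 0.37, with 14 of 17 fitted higher, 2 risen and none fallen. Without Cmpd60 69 the median was 0.18 and 1 gene passed. Both that rose encode metallothioneins, which bind zinc and copper. Mt2 was 47.8 to 67.8 CPM with Cmpd60 and 20.8 to 31.7 CPM with vehicle, a log2 fold change of 1.13 ± 0.12 (SE; edgeR adjusted p = 0.00037). Mt1 was 103 to 135 CPM and 54.3 to 91.3 CPM, a log2 fold change of 0.58 (edgeR adjusted p = 0.0232). The groups did not overlap for either gene. The summed level of macrophage markers was 165 to 194 CPM with Cmpd60 and 119 to 201 CPM with vehicle. All 5 were fitted higher, with 0 of 5 passing edgeR's test and 2 of 5 at an unadjusted p under 0.05. All 5 endothelial markers were also fitted higher (0 passed, 2 at an unadjusted p under 0.05). All 5 lymphocyte markers, summed at only 0.76 to 7.09 CPM, were fitted lower (0 passed, 3 at an unadjusted p under 0.05). The part of these cell types in the result for this list was not tested.

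For adult energy metabolism 0 of 13 genes passed edgeR's test (4 with an unadjusted p under 0.05). The smallest p values were those of Ppara (log2 fold change 0.23, adjusted p = 0.105) and Acadm (-0.18, adjusted p = 0.275). For fetal-type energy metabolism 0 of 7 passed (3 with an unadjusted p under 0.05), with Hk1 at 0.26 (adjusted p = 0.130) and Ucp2 at 0.25 (adjusted p = 0.251). Of 12 genes for ion handling, pacemaker and T-type channels included, 1 rose and 2 fell. The list was not sorted into adult and fetal channels, so its counts give no direction for either pattern. Cacna1h, a T-type calcium channel gene, averaged 33.4 ± 8.31 CPM in the treated hearts (SD, n = 5) against 56.8 ± 7.70 CPM in the controls (SD, n = 6; log2 fold change -0.77; edgeR adjusted p = 0.0150), and Hcn4, the pacemaker channel gene, fell by 0.61 on the log2 scale (edgeR adjusted p = 0.0245). Hcn2, its relative, rose by 0.43 on the log2 scale (edgeR adjusted p = 0.0390).

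The atrial markers, given above, were also fitted lower with Cmpd60, as Hcn4 and Cacna1h were, and their part in those 2 results was not tested. Among the 7 companion genes called, Mt2 and Mybpc3 passed in each of 11 fits that left out 1 heart. Cacna1h missed the threshold without Cmpd60 72 (adjusted p = 0.0575), Mt1 without Cmpd60 69 (0.0730), Hopx without Cmpd60 72 (0.0739) or vehicle 63 (0.0549), and Hcn4 without Cmpd60 69 (0.0727), Cmpd60 72 (0.0759) or vehicle 63 (0.0644). Hcn2 passed in only 2 of the 11, those without Cmpd60 70 and without vehicle 65, with adjusted p up to 0.114 in the other 9. Without vehicle 62, vehicle 66 and Cmpd60 68 together, the edgeR adjusted p was past 0.05 for Mybpc3 (0.0638), Hcn4 (0.0690), Hopx (0.0774) and Hcn2 (0.135), and under it for Mt2, Mt1 and Cacna1h. In the 6 lists where edgeR called 0 genes, limma-voom also called 0, whereas DESeq2 called Corin, Tead1, Mef2d, Thrb, Cryab, Ppara and Hk1 (adjusted p 0.00578 to 0.0443).

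Per kilobase of exon, the order of the members in the vehicle hearts was Myh6 (4836 ± 375 CPM per kb; SD, n = 6), Actc1 (4225 ± 261), Nppa (3165 ± 1334), Ankrd1 (1209 ± 219), Csrp3 (1070 ± 111), Nppb (444 ± 123), Acta1 (133 ± 35.7), Myh7 (116 ± 30.4), Xirp2 (113 ± 11.4) and Myh7b (6.85 ± 0.43). Neighbours whose SDs overlap were Myh6 and Actc1, Actc1 and Nppa, Ankrd1 and Csrp3, and the 3 genes Acta1, Myh7 and Xirp2. These SDs give the spread between hearts and do not decide the order within a heart, which was not tested. Among the vehicle hearts, Myh6 was below Actc1 only in vehicle 64 (4345 against 4488 CPM per kb). Actc1 was below Nppa only in vehicle 66 (3952 against 5848 CPM per kb). In the Cmpd60 hearts Ankrd1 stood at 1675 ± 514 CPM per kb and Csrp3 at 1211 ± 198 (SD, n = 5). The length used was that of all annotated exons of a gene together, which can exceed the transcript expressed and lower the value. It was 8.586 kb for Myh7 and 6.407 kb for Myh6, whose coding sequences have 5808 and 5817 bases. The place of Myh7 in this order therefore depends on the annotation.

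The other tissues of the series served as a check on the cardiac origin of these transcripts, using plain library totals and no treatment comparison. In each tissue, Cmpd60 and vehicle libraries were pooled. The dementia model series pooled brains of APPSWE transgenic mice with those of control littermates. The paper gives these mice a younger age than the aged mice, so genotype, treatment and age are mixed in this contrast of tissues. Nppb, Actc1 and Csrp3 were at 0 counts in 9, 4 and 7 of the 11 aged kidney libraries and in 6, 11 and 9 of the 12 aged brain libraries. Ankrd1 had a median of 5.19 CPM in kidney, where it reached 28.3 CPM, against 2352 CPM in heart. Myh7b differed from the rest: its median was 43.9 CPM in heart, 13.2 CPM in aged brain and 20.2 CPM in the brains of the dementia model series, where it reached 49.0 CPM. Myh7 and Acta1 were also present in aged brain, with medians of 13.9 and 3.77 CPM against 943 and 166 CPM in heart. In kidney the medians of Nppa, Myh6 and Xirp2 were 0.0255, 0.413 and 1.03 CPM, and their maxima 1.09, 8.07 and 2.06 CPM. Actc1 reached 2.58 CPM in kidney. The source of these kidney reads was not tested.

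**Figure D5:**
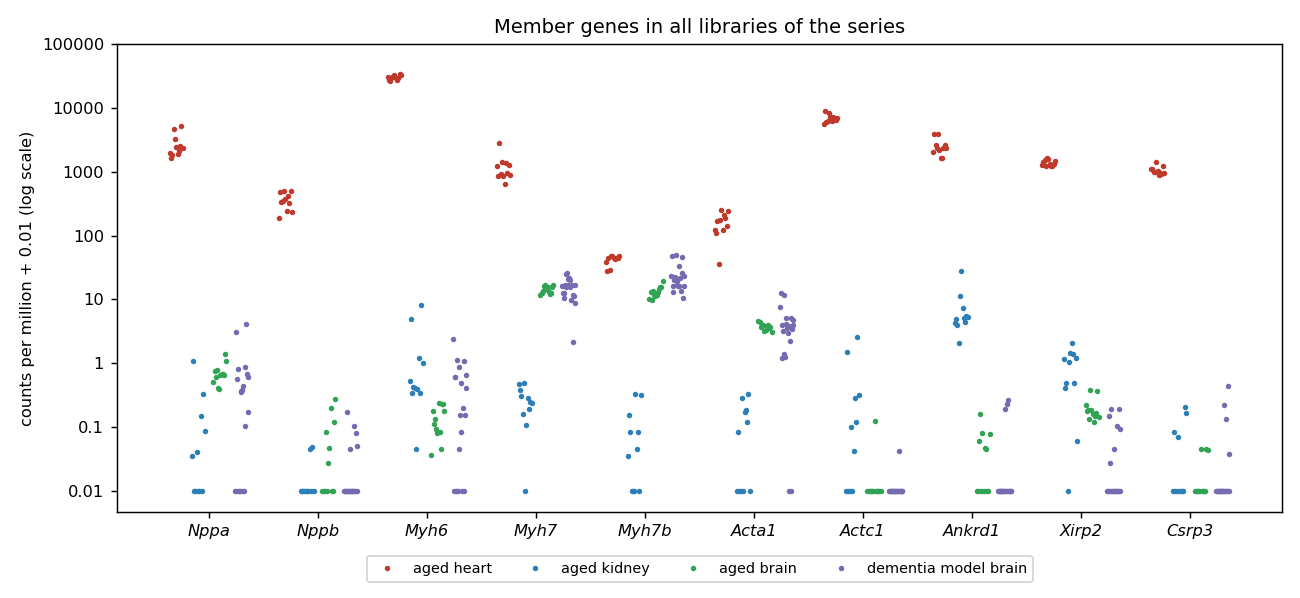
Members (horizontal axis) in all 54 libraries, as CPM plus 0.01 on a log axis, by tissue: aged heart (11 libraries), aged kidney (11), aged brain (12) and dementia model brain with littermates (20). Cmpd60 and vehicle libraries are pooled in each tissue, as are APPSWE and littermate brains. Every heart value lies above every kidney and brain value for each gene except Myh7b, whose heart (28.1 to 48.5) and dementia model brain (10.5 to 49.0) ranges overlap.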

How the data were processed

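Per the labels, RNA of each tissue was purified, poly(A) selected and made into strand-specific libraries with the NEBNext Ultra II Directional kit. The submitters' notes name FastQC, Trimmomatic 0.32, HISAT2 2.1.0 and HTSeq 0.11.0. The authors deposited 1 file of raw gene counts per library, with read direction taken into account. The genome build is not given in the sources used here. The 5 summary lines of HTSeq (19.7 to 22.1% of the heart totals) were left out. Symbols were matched by Ensembl identifier (32651 of 54232), and exon lengths, over all annotated exons of a gene together, came from GENCODE M1.

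Of all genes counted, 19452 passed a minimum of over 2 counts, required in 3 or more heart libraries. TMM scaling and edgeR 4.0.16 (quasi-likelihood test, R 4.3.3) compared Cmpd60 with vehicle, with Benjamini-Hochberg adjustment over all genes tested and a threshold of 0.05. Ratios and correlations used exact permutation over libraries or, for correlations, within groups (SciPy 1.17.1). Alternatives were DESeq2 1.42.0, limma-voom (limma 3.58.1), other scalings, other filters and leaving out hearts. The labels number libraries without naming an animal, and no 2 heart libraries were identical. Nothing in the labels pairs hearts between groups.

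The members and lists were chosen with earlier results of these data known. The text names all members. From each list it names the genes past the threshold (at most 4), or the 2 with the smallest p where none passed. It also names the 3 genes most like Nppa, Myh7 and Ankrd1, and markers where a member moved with them. Rcan1, named beside Hopx, and genes named for passing under an alternative alone were chosen after their values were seen.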

Additional observations from a re-analysis of the deposited data

Results flagged for a closer look

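In each group of hearts, the highest and lowest values of the members and of the ratios were checked against Dixon's criterion for a single value far from the rest. Of 26 groups checked, 4 were past it, and chance alone puts about 1 in 20 groups past it. Nppa stood at 5059 CPM in vehicle 66, where the other 5 vehicle hearts were between 1954 and 2449 CPM. Csrp3 was 1194 CPM in the same library, against at most 1004 CPM in the other 5. Myh7 was 2837 CPM in Cmpd60 70, against 865 to 1432 CPM in the other 4 Cmpd60 hearts. Myh7b was 50.8 CPM in vehicle 67, against 43.1 to 45.95 CPM in the other vehicle hearts. Vehicle 66 had the fewest genes detected of the 11 hearts (17809).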

How the results depend on the processing

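Members called stayed at 0 under all alternatives. Genes called numbered 229 in the fit reported, 746 with DESeq2, 36 to 247 when 1 heart was left out and 133 without vehicle 62, vehicle 66 and Cmpd60 68, a set chosen after seeing the data. Companion genes called numbered 7, then 19 with DESeq2, 12 without a filter on low counts, 3 to 10 when 1 heart was left out and 4 without those 3 hearts. Near-zero log2 fold changes turned sign when 1 heart was left out: Nppa ranged from -0.32 to 0.23 (0.34 without the 3 hearts), Nppb from -0.041 to 0.25 and Actc1 from -0.067 to 0.12. The log2 difference of the Nppa to Nppb ratio ranged from -0.36 to 0.13, and that of the Acta1 to Actc1 ratio from -1.01 to -0.45. Without the 2 farthest hearts, r was 0.13 for Myh6 and Myh7, 0.12 for Nppa and Myh7 and 0.29 for Nppa and Sln. The cause of these changes was not tested. No paired analysis was possible because nothing in the labels links a heart of 1 group to a heart of the other. Depth limited no member, and 5 against 6 hearts limits the precision of each fold change.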
